A study of Mus musculus with 21 samples.

Results

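RNA sequencing followed 10 genes that restrain or report ERK signalling through 4 stages of mouse pluripotency in 2 embryonic stem cell lines. They are the Sprouty genes Spry1, Spry2 and Spry4, the Sprouty-related genes Spred1 and Spred2, the dual-specificity phosphatase genes Dusp4, Dusp5 and Dusp6, and the ETS-family genes Etv4 and Etv5. Each was found by its symbol in the deposited count table of 39396 genes, and all 10 were among the 16575 genes that passed the filter on low counts. The libraries numbered 21, with 3 in each of 7 groups. The embryonic stem cell (mESC) lines were A2 and D3. Their ground state was held in serum medium by 1000 U/mL of leukaemia inhibitory factor (LIF) together with 2i, the usual name for combined inhibitors of MEK, the kinase that activates ERK, and of GSK3. Naive mESCs were ground-state cells from which 2i had been withdrawn for 4 days. Cells labelled early primitive ectoderm-like (EPL) were reached from the ground state by 4 days of L-proline (400 uM) in less LIF (330 U/mL), and 2i is not listed for their medium. The epiblast stem cells (EpiSCs) analysed were of A2 only. They were recovered from A2 cells implanted in a pseudopregnant mouse and then cultured in a serum-replacement medium holding basic fibroblast growth factor and activin A. EpiSC values therefore come from another culture medium, 1 line and 1 described derivation. Whether replicates were separate cultures is not stated in the labels. The tests therefore weigh differences against the spread between these libraries, which may be technical.

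Growth factors such as FGF4 act through receptor tyrosine kinases, Ras, Raf and MEK to activate ERK, and in mESCs this route favours exit from the naive state. ERK induces its own restraints. Sprouty and Spred proteins act at the membrane between receptor and Raf, Spred1 by bringing the Ras-inactivating protein neurofibromin there, and Dusp phosphatases remove phosphate from ERK or related kinases. Etv4 and Etv5 are transcription factors induced by the same route. Capicua (CIC), a repressor that ERK inactivates, binds an octamer in the promoters of several such genes.

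Promoters are shown for Dusp6 and Spry2, the genes whose windows held one of the CIC octamers searched first, and for Etv5, which held the other form at the most positions; no single octamer was found in more than 1 gene. RefSeq windows of 300 bases on GRCm38.p6, from 250 before to 50 after the start site, were matched for 7 of the 10 genes and gave 8 windows among 32851 in all. They were searched on both strands for the CIC octamers TGAATGAA, TGAATGGA, TCAATGAA and TCAATGGA, and, after the windows had been seen, for the same octamers ending in G. Capitals mark the matches on the strand printed, 5′ to 3′. The Dusp6 window is chr10:99262981-99263280 on the plus strand, the Spry2 window is chr14:105896770-105897069 on the minus strand and the Etv5 window, at the downstream of its 2 listed starts, is chr16:22438319-22438618 on the minus strand.
Dusp6: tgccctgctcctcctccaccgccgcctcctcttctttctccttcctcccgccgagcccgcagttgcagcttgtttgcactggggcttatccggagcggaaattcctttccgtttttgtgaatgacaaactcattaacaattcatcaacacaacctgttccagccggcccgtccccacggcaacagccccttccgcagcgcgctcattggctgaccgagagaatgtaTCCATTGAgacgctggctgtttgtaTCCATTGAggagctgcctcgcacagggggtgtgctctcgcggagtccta
Spry2: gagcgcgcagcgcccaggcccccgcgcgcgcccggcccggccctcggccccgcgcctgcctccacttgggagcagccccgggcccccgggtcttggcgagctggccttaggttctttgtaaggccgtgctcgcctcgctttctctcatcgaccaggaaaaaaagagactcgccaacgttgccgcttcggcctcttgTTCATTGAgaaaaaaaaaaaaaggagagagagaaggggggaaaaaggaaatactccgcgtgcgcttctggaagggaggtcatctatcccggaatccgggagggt
Etv5 downstream start: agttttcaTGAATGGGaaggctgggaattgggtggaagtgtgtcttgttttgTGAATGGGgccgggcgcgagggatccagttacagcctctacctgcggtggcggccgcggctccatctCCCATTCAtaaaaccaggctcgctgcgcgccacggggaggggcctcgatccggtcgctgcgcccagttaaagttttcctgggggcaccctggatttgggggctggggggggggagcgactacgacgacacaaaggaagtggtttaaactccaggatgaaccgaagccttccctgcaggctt
Dusp6 held TCAATGGA on the reverse strand at both matches, with first bases 24 before the start site and at base 2 of the transcript. Spry2 held TCAATGAA on the reverse strand, 54 bases before the start. An octamer ending in A was present in 3.84% of all windows, TCAATGGA in 0.67% and TCAATGAA in 0.749%. The Etv5 window held TGAATGGG at 3 positions, first bases 242 and 198 before the start on the printed strand and 131 before it on the reverse strand, and Dusp5 held TGAATGAG on the reverse strand 39 bases before its start. Octamers ending in G were in 3.44% of all windows, and TGAATGGG in 1.08%. The windows of Spred1, Spred2, Spry1 and the upstream start of Etv5 held neither form. The ETS sequence CCGGAAGT, the AP-1 sequence TGANTCA, the STAT sequence TTCNNNGAA and the TCF sequence CTTTGATG, which were in 3.89%, 7.81%, 8.3% and 1.09% of all windows, were matched in none of the 8. A match describes letters in these windows and is no evidence of binding.

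**Figure D1:**
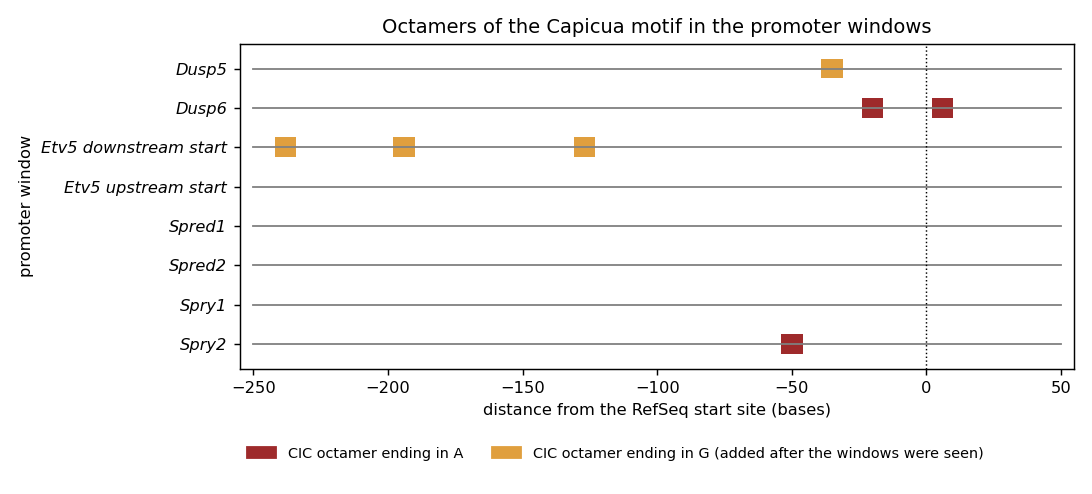
Positions of CIC octamers in the 8 promoter windows, as distance in bases from the RefSeq start site on the x axis, with 1 line per window. Red blocks are octamers ending in A and orange blocks octamers ending in G; Dusp6 has 2 of the first kind close to the start and the downstream start of Etv5 has 3 of the other kind farther upstream.

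Total counts per library ranged from 15320599 to 23490527, and the 10 genes had between 34 and 13824 counts per library. Levels are CPM, counts scaled to a common library size, given as mean ± SD with n = 3 libraries where not given per library. Changes are log2 fold changes ± SE from edgeR's quasi-likelihood test on all 21 libraries, and a gene is said to rise or fall where its Benjamini-Hochberg adjusted p, over all 16575 genes, was below 0.05. Markers of the labelled stages were in part as labelled. The summed level of 6 naive markers was highest in ground libraries (4729 to 6134 CPM), and 5 formative markers summed to 876 to 1657 CPM in EPL and 163 to 470 CPM in ground and naive libraries. The list of 8 primed markers shares Fgf5 with the formative list. In A2 EpiSC libraries the primed list summed to 175 to 192 CPM, above the 51.5 to 132 CPM of the other A2 groups. This was below the 265 to 276 CPM of D3 EPL libraries. Of the 8 primed markers, 7 were higher in EpiSCs than in A2 EPL cells and 8 than in A2 naive cells. Of all genes, 39.1% were higher in each of these comparisons. Compared with A2 ground cells, 7 were higher and 1 lower (39.1% and 34.1% of all genes). In EpiSCs T was at 4.41 CPM and Fgf5 at 12.7 CPM. All 6 naive markers were lower in EpiSCs than in A2 ground cells, where 34.1% of all genes were. Their sums were 1041 to 1319 CPM against 5757 to 6134 CPM. All 6 were also lower than in A2 naive cells (31.2% of all genes). Beside A2 EPL cells, 2 were higher, 3 lower and 1 not called (39.1% higher and 31.3% lower over all genes). The naive sums of D3 EPL libraries, at 1139 to 1286 CPM, lay within the EpiSC range. The formative sum in EpiSCs was 144 to 149 CPM, which does not describe each gene. Of the 5 formative markers, 4 were higher and 1 lower than in A2 ground cells (39.1% and 34.1% of all genes). Against A2 EPL cells 1 was higher and 4 were lower (39.1% and 31.3% of all genes). A list of 4 general pluripotency markers (Pou5f1, Sox2, Sall4 and Lin28a) summed to 865 to 1096 CPM in EpiSC libraries and to 1951 to 2810 CPM elsewhere. All 4 were lower in EpiSCs than in A2 naive cells (31.2% of all genes) and A2 EPL cells (31.3%). Against A2 ground cells 1 was higher and 3 were lower (39.1% and 34.1%). Fibroblast and primitive endoderm markers were high in the EpiSC libraries, and the sum of trophoblast markers was not. A list of 7 trophoblast markers summed to 45.1 to 48.1 CPM in EpiSC libraries and to 62.9 to 121 CPM in the other A2 groups. In D3 EPL libraries that sum was lower, at 27 to 29.9 CPM. A list of 12 fibroblast markers summed to 2858, 2627 and 3573 CPM in the 3 EpiSC libraries and to 8.21 to 23.6 CPM in the other 18, where Postn and Lum, among others, were at 0 in some groups. A list of 9 primitive endoderm markers summed to 1349, 1211 and 1669 CPM there and to 146 to 334 CPM elsewhere. In bulk RNA, a different share of cells of a type and a different amount of RNA per cell cannot be told apart.

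**Figure D2:**
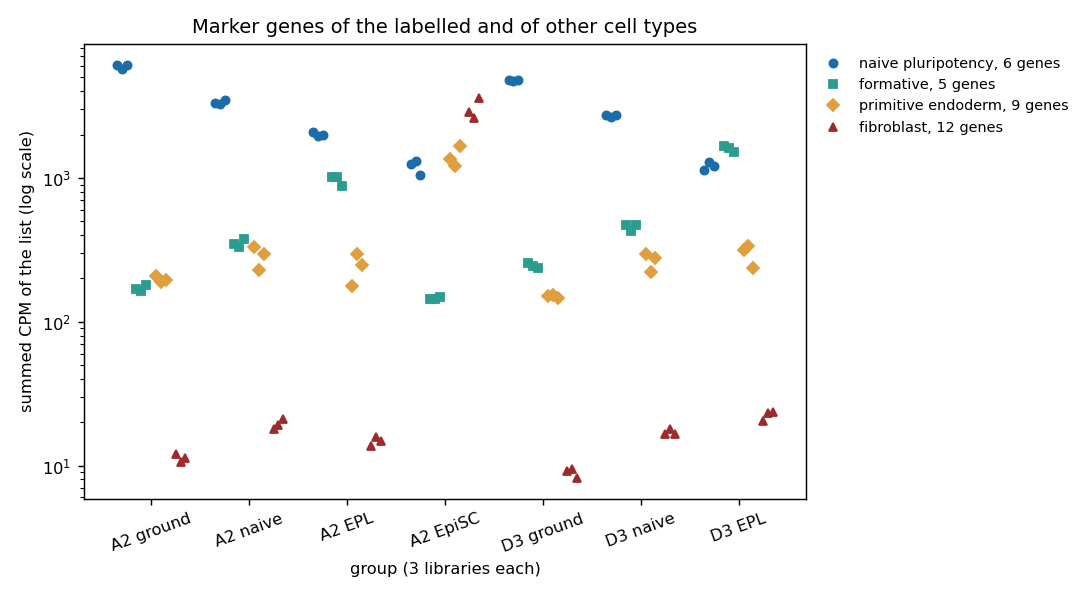
Summed CPM of 4 marker lists in each library (log scale on the y axis), by group on the x axis with 3 libraries each. Fibroblast markers lie below 24 CPM in every group except A2 EpiSC, where they lie between 2627 and 3573 CPM.

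After 4 days without 2i, 9 of the 10 genes were higher. As the mean of A2 and D3, naive cells had higher levels than ground-state cells of every gene but Etv5, with a median change of 1.23 over the 10 genes beside 0.01 over all genes tested. Across all genes, 31.7% were called higher and 31.8% lower in this comparison, so a call alone is common, and 6 of the 10 genes passed both the test and a 2-fold rise, which 13.2% of all genes did. The rises were unequal. Spry4 (7.84-fold), Dusp4 (7.28-fold), Dusp5 (4.24-fold) and Dusp6 (3.63-fold) changed most, and Spry2 and Spred2 rose 1.6-fold and 1.61-fold. Taken line by line, the same 9 were higher in A2 (51% of all genes called either way) and in D3 (53.6%), where Etv5 was also called, as lower.

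EPL cells, compared with the same ground-state libraries, had 9 genes higher and Etv5 lower, beside 33.1% and 33.2% of all genes. Both comparisons use the ground libraries, so their likeness is no separate evidence. In each line alone 9 genes were higher and Etv5 lower, where 54.8% (A2) and 57.8% (D3) of all genes were called either way. The A2 call of Etv5 was lost without A2 ground replicate 1 or 3 or A2 EPL replicate 3 (-0.19, -0.18 and -0.18), and that of Etv4 without A2 ground replicate 2 (0.22). Between EPL and naive cells, which share no library, the genes parted: Spry1, Spry2, Spry4, Dusp4 and Dusp6 were higher in EPL cells, Spred1, Dusp5, Etv4 and Etv5 were lower, and Spred2 was not called. Over all genes 27.1% were called higher and 24.1% lower, and only Dusp4 among the 10 also passed 2-fold, which 9.79% of all genes did in either direction. Within A2, 8 of the 10 genes were called between EPL and naive cells (32.8% of all genes), and within D3 7 were (44.9%). The A2 call of Spry2 was lost in 4 of 6 models that left out 1 library (0.15 to 0.19).

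**Figure D3:**
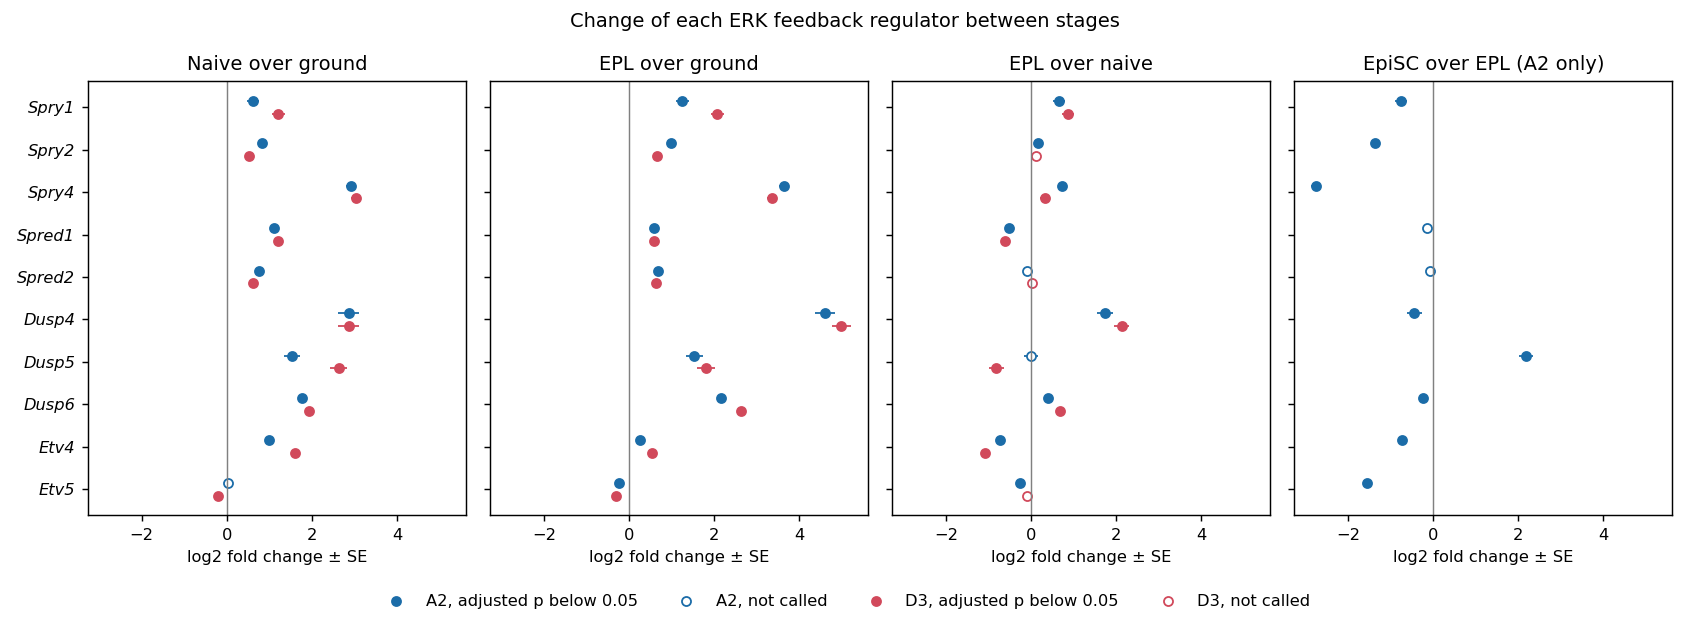
Log2 fold change ± SE (x axis) of each of the 10 genes (y axis) in A2 (blue) and D3 (red) for naive over ground, EPL over ground, EPL over naive and, in A2 only, EpiSC over EPL cells; filled points have an adjusted p below 0.05. Both panels against ground lie to the right of 0 for every gene except Etv5, and the EPL over naive panel has genes on both sides.

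Among the Sprouty genes, which encode membrane-associated inhibitors of Ras and Raf activation, Spry4 (ENSMUSG00000024427, GRCm38 chr18:38586247-38601415, minus strand) had the widest range. In A2 its level was 18.1, 18.7 and 23.7 CPM in the ground libraries, 132, 163 and 158 CPM in naive, 256, 254 and 244 CPM in EPL and 41.8, 38.2 and 32.3 CPM in EpiSC libraries. In D3 it was 22.5, 21 and 19.5 CPM in ground, 166, 156 and 194 CPM in naive and 229.08, 218.39 and 200.02 CPM in EPL libraries. Every naive and EPL library of either line was far above every ground library, and EpiSC libraries lay between. The rise on withdrawal was 2.97 ± 0.08 (edgeR adjusted p = 2.4e-18) and the EPL over naive difference 0.53 ± 0.07 (adjusted p = 3.09e-06). In D3 alone the EPL level over naive was 0.33 ± 0.10 (adjusted p = 0.0136), and this call was lost without D3 naive replicate 1 (0.29, edgeR adjusted p = 0.0528), D3 naive replicate 2 (0.26, adjusted p = 0.0636) or D3 EPL replicate 1 (0.28, adjusted p = 0.0633). No Spry4 difference between the lines was called at any stage: the D3 over A2 difference was 0.06 ± 0.12 in ground (95% interval, not adjusted for the number of genes, -0.18 to 0.31), 0.19 ± 0.10 in naive (-0.03 to 0.40) and -0.22 ± 0.10 in EPL cells (-0.43 to -0.01).

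Spry2 (ENSMUSG00000022114, GRCm38 chr14:105891947-105896819, minus strand) was the most abundant Sprouty transcript per kilobase of merged exons in every group, at 37.7 to 107 CPM per kb. Its A2 level was 112, 104 and 118 CPM in ground, 199, 204 and 194 CPM in naive, 223, 226 and 217 CPM in EPL and 92.2, 87.6 and 80.5 CPM in EpiSC libraries. Its D3 level was 79.8, 79.2 and 77.2 CPM in ground, 113, 113 and 115 CPM in naive and 125, 123 and 123 CPM in EPL libraries. Spry2 thus moved little compared with Spry4 and differed by line: each D3 library was below each A2 library of the same stage, with a difference of -0.72 ± 0.03 as the mean over stages (adjusted p = 2.56e-13). The rise on withdrawal was 0.68 ± 0.04 (adjusted p = 2.98e-12). The small excess in EPL over naive cells, 0.14 ± 0.04 (adjusted p = 0.00746), was not called without the filter on low counts (adjusted p = 0.0615).

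Spry1 (ENSMUSG00000037211, GRCm38 chr3:37639947-37644598, plus strand) was the scarcest Sprouty transcript, at 2.29 to 9.69 CPM per kb. In A2 it was at 8.89, 9.06 and 7.66 CPM in ground, 11.6, 14.9 and 12.6 CPM in naive, 26.4, 19.2 and 15.8 CPM in EPL and 10.8, 12.9 and 12.7 CPM in EpiSC libraries. The D3 level was 7.6, 6.32 and 6.02 CPM in ground, 14.5, 16.2 and 15.3 CPM in naive and 27.6, 29.1 and 27.7 CPM in EPL libraries. Its order was the same in both lines, ground below naive below EPL, without overlap between these stages of a line, and EpiSC libraries overlapped A2 naive ones. The change was 0.91 ± 0.11 on withdrawal (adjusted p = 1.32e-07) and 0.76 ± 0.10 for EPL against naive cells (adjusted p = 1.29e-06). The annotation places Gm42922 on the opposite strand over 710 exon bases of Spry1, and the library kit does not mark strand, so reads of the pair cannot be told apart.

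**Figure D4:**
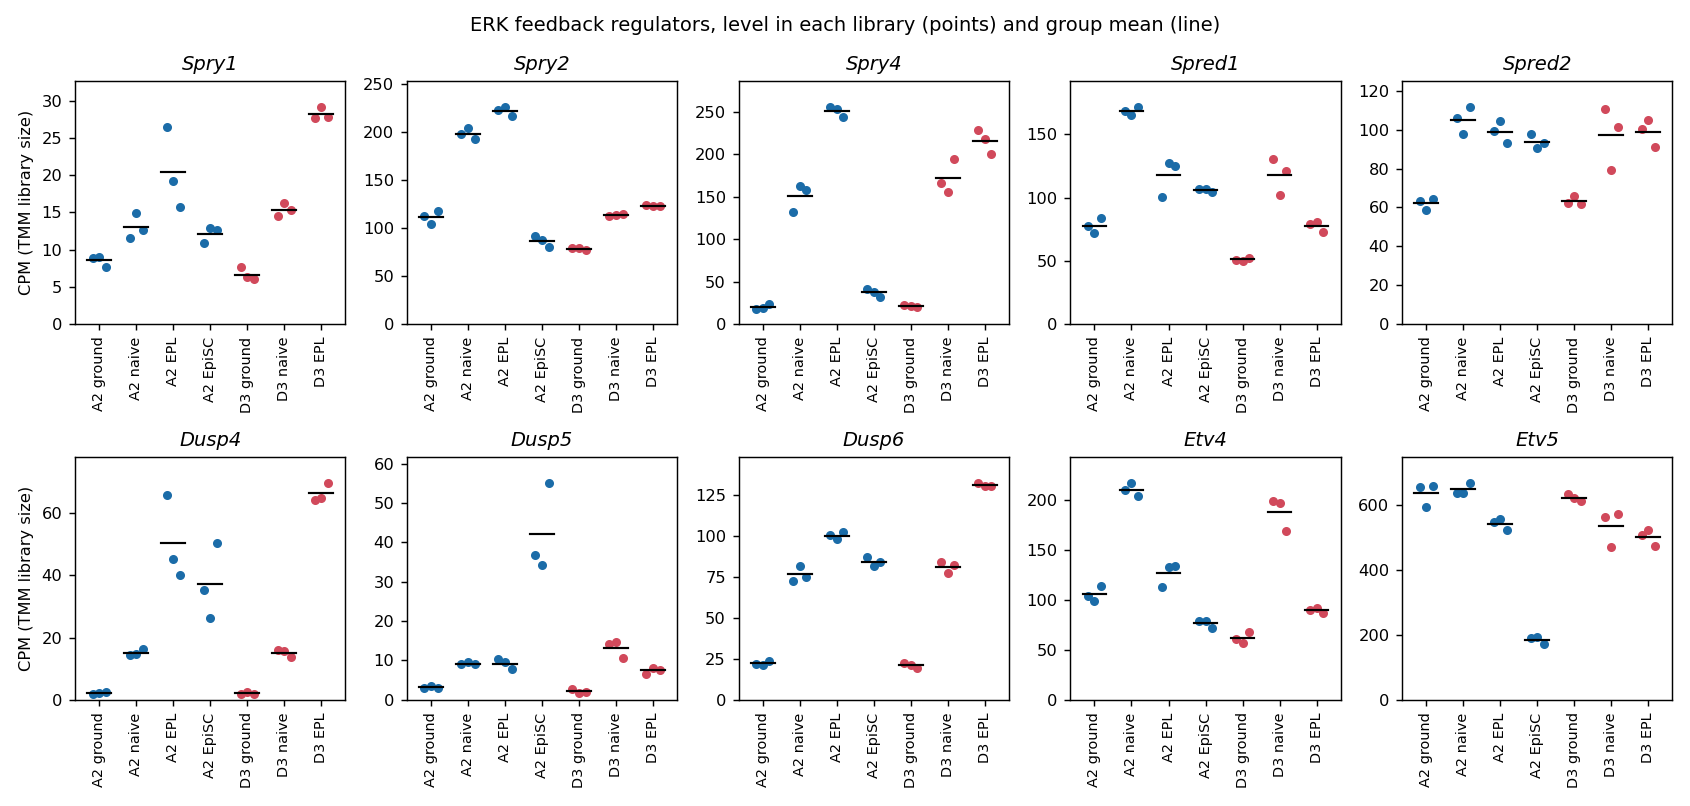
CPM of each gene (y axis, from 0) in each library, by group on the x axis; points are the 3 libraries of a group, the line is their mean, with A2 in blue and D3 in red. Spry4, Dusp4 and Dusp6 are low in ground libraries of both lines, Dusp5 is highest in A2 EpiSC libraries and Etv5 is lowest there.

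The Spred genes, whose products bind Ras and the neurofibromin GTPase-activating protein, moved less than Spry4. Spred1 (ENSMUSG00000027351, GRCm38 chr2:117121374-117182279, plus strand) in A2 was at 77.2, 72.1 and 83.6 CPM in ground, 168, 165 and 172 CPM in naive, 100.1, 127 and 125 CPM in EPL and 106, 107 and 104 CPM in EpiSC libraries. In D3 it was at 50.9, 49.8 and 52.5 CPM in ground, 131, 102 and 121 CPM in naive and 79.1, 80.8 and 72.4 CPM in EPL libraries. Spred1 was highest in naive cells of both lines: it rose by 1.16 ± 0.06 on withdrawal (adjusted p = 3.08e-13) and was lower in EPL than in naive cells (log2 change -0.56 ± 0.06, adjusted p = 1.45e-07). Its level was lower in D3 at each stage, with a mean difference of -0.57 ± 0.05 (adjusted p = 6.7e-09). Spred2 (ENSMUSG00000045671, GRCm38 chr11:19924375-20024026, plus strand) had the narrowest range of the 10 genes, 1.69 times between the highest and the lowest group. It was at 58.8 to 65.9 CPM in the 6 ground libraries and at 79.2 to 111.6 CPM in all others, so that ground libraries did not overlap the rest. It rose by 0.69 ± 0.07 on withdrawal (adjusted p = 4.06e-09), and EPL and naive cells differed by -0.03 ± 0.06 (95% interval -0.16 to 0.10).

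The 3 phosphatase genes each had a different profile. Dusp6 (ENSMUSG00000019960, GRCm38 chr10:99263231-99267489, plus strand) encodes a cytoplasmic phosphatase that prefers ERK. Its A2 level was 21.7, 21.4 and 23.8 CPM in ground, 72.6, 81.7 and 74.9 CPM in naive, 100.1, 97.9 and 102 CPM in EPL and 87.3, 81.7 and 83.8 CPM in EpiSC libraries. Its D3 level was 22.3, 21.5 and 19.5 CPM in ground, 83.9, 77.3 and 82 CPM in naive and 132, 131 and 130.5 CPM in EPL libraries. Replicates of Dusp6 were close, with a median coefficient of variation of 4.2% over the groups, and stages of a line did not overlap, although EpiSC libraries lay just above A2 naive ones. It rose by 1.86 ± 0.05 on withdrawal (adjusted p = 8.87e-19) and was higher in EPL than in naive cells by 0.54 ± 0.05 (adjusted p = 2.2e-09).

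Dusp4 (ENSMUSG00000031530, GRCm38 chr8:34807297-34819894, plus strand), which encodes a nuclear phosphatase of ERK and of stress kinases, had the widest range of the 10 genes, 32.1 times between group means. In A2 it was at 1.8, 2.04 and 2.39 CPM in ground, 14.3, 14.7 and 16.3 CPM in naive, 65.9, 45.2 and 40.3 CPM in EPL and 35.2, 26.3 and 50.3 CPM in EpiSC libraries. In D3 it was at 1.87, 2.42 and 1.92 CPM in ground, 16.1, 15.6 and 13.7 CPM in naive and 64.3, 65 and 69.7 CPM in EPL libraries. EPL libraries of both lines were far above naive ones, and A2 EPL and EpiSC libraries were widely spread and overlapped. Withdrawal changed it by 2.86 ± 0.17 (adjusted p = 1.91e-12), and EPL exceeded naive cells by 1.93 ± 0.13 (adjusted p = 4.99e-11). Per kilobase it went from 0.755 CPM in D3 ground to 24.2 CPM in D3 EPL libraries.

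Dusp5 (ENSMUSG00000034765, GRCm38 chr19:53529109-53542431, plus strand) encodes a nuclear phosphatase that acts on ERK. In A2 it was at 3.07, 3.48 and 2.99 CPM in ground, 8.99, 9.65 and 8.97 CPM in naive, 10.3, 9.49 and 7.78 CPM in EPL and 36.8, 34.2 and 55.1 CPM in EpiSC libraries. The D3 levels were 2.68, 1.81 and 1.86 CPM in ground, 14.2, 14.6 and 10.7 CPM in naive and 6.61, 8.08 and 7.66 CPM in EPL libraries. The naive and EPL levels overlapped in A2 and did not in D3, and EpiSC libraries were above all others. Withdrawal raised it by 2.08 ± 0.14 (adjusted p = 1.47e-11). The EPL over naive change was -0.41 ± 0.12 as the mean of lines (adjusted p = 0.00819), made of 0.00 ± 0.17 in A2 and -0.81 ± 0.17 in D3. The antisense gene AC137853.2 shares 547 exon bases with Dusp5 on the opposite strand, and its reads cannot be told apart here.

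The transcription factor genes Etv4 and Etv5 differed from each other although they encode close relatives. Etv5 (ENSMUSG00000013089, GRCm38 chr16:22381309-22439719, minus strand) had the highest mean of the 10 transcripts per kilobase in every group, at 45 to 158 CPM per kb. In A2 EpiSC libraries this lead was small and not tested, at 45 ± 3.04 CPM per kb beside 41.6 ± 2.81 for Spry2. In A2 it was at 654, 592 and 657 CPM in ground, 636, 636 and 667 CPM in naive, 545, 554 and 520.3 CPM in EPL and 191, 192 and 170.1 CPM in EpiSC libraries. In D3 it was at 632, 619 and 611 CPM in ground, 562, 469 and 572 CPM in naive and 506, 523 and 472 CPM in EPL libraries. Etv5 was already high in the presence of 2i and was called higher after its withdrawal in neither line. The change was -0.09 ± 0.05 as the mean of lines (95% interval -0.20 to 0.01, adjusted p = 0.121) and 0.03 ± 0.07 in A2. In D3 Etv5 fell by 0.22 ± 0.07 (adjusted p = 0.0178), a call lost without D3 ground replicate 1 (log2 change -0.18, edgeR adjusted p = 0.0809), D3 ground replicate 2 (-0.19, adjusted p = 0.058) or D3 naive replicate 2 (-0.13, adjusted p = 0.13), and also with total-count scaling, with no filter and with only the compared groups in the model. EPL cells had less Etv5 than ground-state cells (-0.27 ± 0.05, adjusted p = 8.78e-05).

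Etv4 (ENSMUSG00000017724, GRCm38 chr11:101769742-101785371, minus strand) peaked in naive cells. In A2 it was at 104, 98.4 and 114 CPM in ground, 209, 217 and 203 CPM in naive, 112, 133 and 134 CPM in EPL and 78.9, 79 and 72.3 CPM in EpiSC libraries. In D3 it was at 60.5, 56.9 and 67.7 CPM in ground, 199, 196 and 169 CPM in naive and 89.6, 92.3 and 86.8 CPM in EPL libraries. Each naive library was above every library of the other stages, and in A2 the ground and EPL libraries overlapped. Etv4 rose by 1.30 ± 0.06 on withdrawal (adjusted p = 1.19e-14) and was lower in EPL than in naive cells, with a log2 change of -0.90 ± 0.06 (adjusted p = 3.53e-11). EPL cells kept an excess of 0.40 ± 0.06 over ground-state cells (adjusted p = 2.88e-06).

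In A2 EpiSCs the 10 genes did not move together. Against EPL cells 7 were lower, Dusp5 was higher, and Spred1 and Spred2 were not called, beside 31.3% of all genes lower and 39.1% higher. The log2 change was -2.75 ± 0.11 for Spry4 (adjusted p = 3.56e-15), -1.55 ± 0.08 for Etv5 (adjusted p = 7.48e-14) and -1.36 ± 0.06 for Spry2 (adjusted p = 1.48e-14). Dusp5 was 4.56-fold higher (2.19 ± 0.16, adjusted p = 7.64e-11). The lower Dusp4 level (-0.44 ± 0.17, adjusted p = 0.0252) was not called without A2 EPL replicate 1 (-0.20, edgeR adjusted p = 0.291), A2 EpiSC replicate 1 (-0.41, adjusted p = 0.0651) or A2 EpiSC replicate 2 (-0.25, adjusted p = 0.163), and it was -0.73 without A2 EpiSC replicate 3. Spred1 was called lower without A2 EPL replicate 1 (-0.26, adjusted p = 0.00942). Against naive cells, 5 genes were lower and Dusp4 and Dusp5 higher, beside 31.2% and 39.1% of all genes. The log2 change was -1.81 ± 0.08 for Etv5, -2.01 ± 0.11 for Spry4 and -1.45 ± 0.08 for Etv4, and Dusp6, at 0.14 ± 0.06 (adjusted p = 0.0542), was not called, although it was without A2 naive replicate 2 (0.20, adjusted p = 0.0177) and with a stricter filter (0.15, adjusted p = 0.0422). Against ground-state cells 7 genes were higher and Spry2, Etv4 and Etv5 lower, beside 39.1% and 34.1% of all genes. Dusp4 (18-fold), Dusp5 (13.2-fold) and Dusp6 (3.78-fold) led these rises, and Spry4 rose 1.86-fold.

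The EpiSC libraries differ from the others in the fibroblast and primitive endoderm markers given above, and also in the culture medium. EpiSC replicate 3, with the highest sums of both marker lists (3573 and 1669 CPM), also had the highest Dusp4 and Dusp5 and the lowest Spry2, Spry4, Etv4 and Etv5 of the 3 EpiSC libraries. EpiSC replicate 1 exceeded replicate 2 in both sums, in Dusp4 and Dusp5 and also in Spry2 and Spry4. It was slightly lower in Etv4 and Etv5. Without replicate 3, Dusp5 remained higher than in EPL cells, by 1.93. The part of other cell types in these differences was not tested. The EpiSC comparisons also depend on scaling. With total counts in place of TMM factors, the median change of all genes went from 0.07 to 0.27 against EPL, from 0.08 to 0.26 against naive and from 0.04 to 0.30 against ground cells. The share of called genes that were higher went from 55.5% to 68.6%, from 55.6% to 67% and from 53.5% to 69.4%. On that scale Dusp4 (-0.23, adjusted p = 0.233) and Dusp6 (-0.04, adjusted p = 0.573) were not called against EPL cells, Spry2 (-0.10, adjusted p = 0.136) was not called against ground cells, and Dusp6 was called higher than in naive cells (0.33, adjusted p = 0.000151). Spry4, Etv4, Etv5 and Dusp5 kept their calls against EPL and naive cells.

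The 2 lines differed at the same stage in 5 of the 10 genes as the mean over ground, naive and EPL cells, with 4 lower in D3 and Dusp6 higher, beside 20.7% and 20% of all genes. Spry2, Spred1 and Etv4 had the largest differences, of -0.72 ± 0.03, -0.57 ± 0.05 and -0.48 ± 0.05, followed by Etv5 (-0.14 ± 0.04, adjusted p = 0.012) and Dusp6 (0.13 ± 0.04, adjusted p = 0.00813). No difference reached 2-fold. Without A2 EPL replicate 1, Spry1 was also called (0.19, adjusted p = 0.0371). Within a stage, 3 of the 10 genes were called in ground, 4 in naive and 5 in EPL cells, beside 20.1%, 29.9% and 29.4% of all genes. Calls lost when a library was left out were those of Dusp5 (in 4 of 6 models, 0.43 to 0.66) and Etv5 (in 1 of 6, -0.31 to -0.19) in naive cells and Spry1 in EPL cells (in 3 of 6, 0.30 to 0.69), and Dusp4 was called in EPL cells without A2 EPL replicate 1 (0.64, adjusted p = 0.0057). Etv4 was lower in D3 in ground (-0.77 ± 0.08, adjusted p = 4.95e-07) and EPL cells (-0.50 ± 0.08, adjusted p = 8.44e-05) and was not called in naive cells (-0.16 ± 0.08, adjusted p = 0.145).

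The response to withdrawal differed between lines for Etv4 and Dusp5, tested as the D3 change minus the A2 change, beside 3.06% of all genes. Etv4 rose by 0.99 ± 0.08 in A2 and 1.61 ± 0.08 in D3, a difference of 0.61 ± 0.12 (adjusted p = 0.00364). Dusp5 rose by 1.53 ± 0.20 and 2.63 ± 0.20, a difference of 1.10 ± 0.29 (adjusted p = 0.0395). The Dusp5 call was less secure: it was lost in 10 of 12 models that left out 1 library (0.99 to 1.31) and with the replicate number as a block (adjusted p = 0.0584). The 2 models in which it held left out D3 ground replicate 1 or D3 naive replicate 3. For EPL against naive cells, Dusp5 and Dusp6 differences differed between lines, beside 12.7% of all genes. The Dusp6 difference was 0.39 ± 0.06 in A2 and 0.69 ± 0.06 in D3, which differed by 0.30 ± 0.09 (adjusted p = 0.0282) whose call was lost in 10 of 12 models without 1 library (0.24 to 0.32). The Dusp5 difference was -0.81 ± 0.25 (adjusted p = 0.0307), lost in 7 of 12 such models (-0.96 to -0.73). From ground to EPL cells, Spry1, Spry2 and Dusp6 differed between lines, beside 13.3% of all genes, and kept their calls whichever library was left out. Spry1 rose by 1.26 ± 0.15 in A2 and 2.08 ± 0.15 in D3 (difference 0.82 ± 0.21, adjusted p = 0.00995), Spry2 by 0.997 ± 0.06 and 0.65 ± 0.06 (difference -0.35 ± 0.08, adjusted p = 0.00734), and Dusp6 by 2.17 ± 0.07 and 2.63 ± 0.07 (difference 0.47 ± 0.10, adjusted p = 0.0019). For Dusp4 the D3 minus A2 difference of that rise was 0.39 ± 0.36, with a 95% interval of -0.37 to 1.14.

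Other genes of the pathway were read from lists that were chosen with earlier results of these data known. Of 10 other Sprouty, Spred, Dusp and Etv genes, 9 were tested, and on withdrawal 4 rose and 4 fell (median -0.08), beside 31.7% and 31.8% of all genes. Dusp9, a cytoplasmic ERK phosphatase, rose by 1.91 ± 0.07 (adjusted p = 3.98e-16): ground levels were 36.3 ± 2.64 CPM (A2) and 30.5 ± 3.23 CPM (D3), and naive levels 131 ± 10.2 and 119.6 ± 11.9 CPM. Spred3 rose by 0.85 ± 0.11, while Dusp16, a JNK and p38 phosphatase, fell, as did Dusp7 (-0.75 ± 0.07 and -0.59 ± 0.08). Between EPL and naive cells 7 of the 9 were higher and Dusp9 was lower (-0.67 ± 0.07), beside 27.1% and 24.1% of all genes, with Spred3 at 1.34 ± 0.10 and Dusp7 at 0.75 ± 0.08. In EpiSCs against EPL cells 6 were higher and 2 lower, beside 39.1% and 31.3% of all genes. Etv1, which belongs to the same ETS subfamily as Etv4 and Etv5, was lower, as Etv5 was (-1.13 ± 0.12, adjusted p = 1.85e-08), and its level was 14.5 ± 0.659 CPM in EpiSC and 31.8 ± 6.16 CPM in EPL libraries.

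The 23 adaptor, Ras, Raf, MEK and ERK genes moved little on withdrawal, with 6 higher and 10 lower, beside 31.7% and 31.8% of all genes, and none past 2-fold (median -0.09). Sos2, which loads Ras with GTP, fell by 0.95 ± 0.11, and Mapk3, which encodes ERK1, rose by 0.61 ± 0.06 and was higher in EPL than in naive cells (0.57 ± 0.06, adjusted p = 1.16e-07). In EPL against naive cells 15 were higher and 4 lower, beside 27.1% and 24.1% of all genes. Of 14 Ras GTPase-activating proteins and other negative regulators, 4 rose and 8 fell on withdrawal (all genes 31.7% and 31.8%), among the latter Lrig1 (-1.32 ± 0.09), which restrains receptor tyrosine kinases. All 6 genes of the repressors that ERK controls were called on withdrawal, with 2 higher and 4 lower, against the same shares. Atxn1 and Atxn1l, whose products partner with CIC, went opposite ways (-1.68 ± 0.27 and 1.05 ± 0.11), and in EPL against ground-state cells Cic was lower (-0.89 ± 0.09) and Atxn1l higher by 2.07 ± 0.10. In EpiSCs against EPL cells all 6 were higher, where 39.1% of all genes were, among them Atxn1 (2.25 ± 0.28) and Erf (0.63 ± 0.07), an ETS-domain repressor, in the libraries with the fibroblast sums of 2627 to 3573 CPM.

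Immediate early genes, transcribed within minutes of ERK activation, rose in 9 of 13 cases on withdrawal (median 1.06), where 31.7% of all genes did. Egr1 changed most among those at 5 CPM or more (6.36 ± 0.19), followed by Myc (2.50 ± 0.07), Fos (1.76 ± 0.18) and Junb (1.06 ± 0.06). Between EPL and naive cells 3 were higher and 3 lower, beside 27.1% and 24.1% of all genes: Jun was higher (1.31 ± 0.14) and Fos (-1.16 ± 0.17) and Egr1 (-0.54 ± 0.12) lower. In EpiSCs against EPL cells 9 were higher (39.1% of all genes), led by Fosl2 (4.56 ± 0.27) and Jun (2.63 ± 0.17), and Myc was lower (-2.35 ± 0.10). Of 17 FGF ligand and receptor genes, 14 were tested, and 8 rose and 4 fell on withdrawal, beside 31.7% and 31.8% of all genes. The ligand genes Fgf15 (4.58 ± 0.16) and Fgf17 (3.68 ± 0.07) and the receptor gene Fgfr2 (3.40 ± 0.13) were among the rises. In EpiSCs against EPL cells Fgf8 was higher (4.08 ± 0.30) and Fgf17 lower (-3.51 ± 0.10).

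Across the 21 libraries, the 10 profiles fell along a few shapes, given here as Pearson's r of log2 CPM with no test, since libraries of a group share their condition. Of 45 pairs, 39 had r above 0, with a median of 0.56. Dusp4 and Dusp6 were the most alike pair (r = 0.97), and Dusp6 was also close to Spred2 (0.91), Spry1 (0.89) and Spry4 (0.86). By ranks (Spearman's coefficient) Dusp6 was less close to Spred2 (0.60) than to Spry1 (0.88) and Spry4 (0.87). Spred1 and Etv4, the genes highest in naive cells, had r = 0.83. Dusp5 and Etv5 were the most opposed pair (r = -0.80), with the EpiSC libraries highest for the first and lowest for the other.

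**Figure D5:**
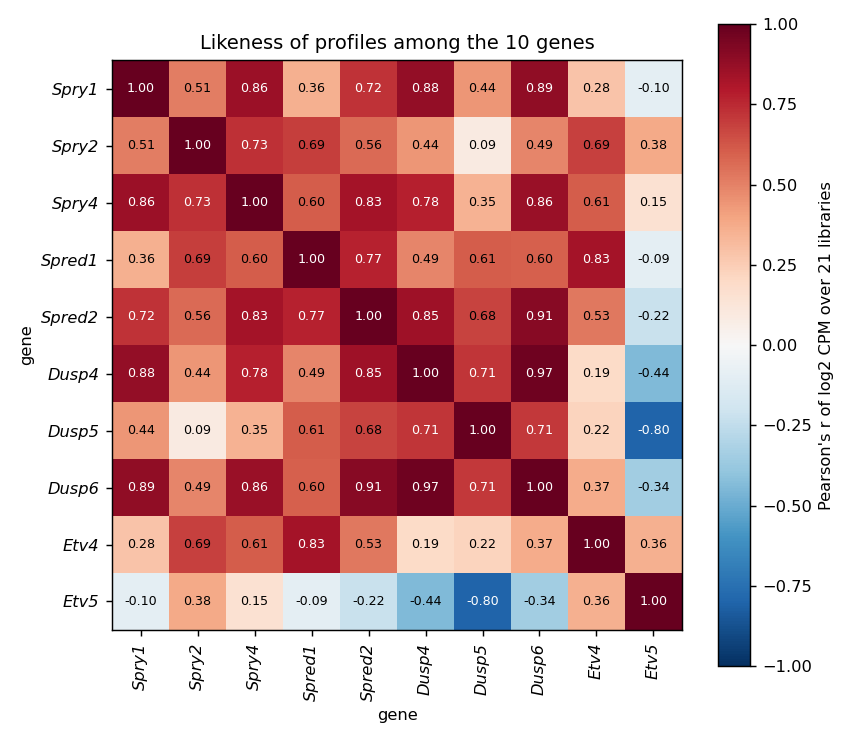
Pearson's r of log2 CPM over 21 libraries for every pair of the 10 genes, both axes listing genes, red for positive and blue for negative values. Dusp4 and Dusp6 reach 0.97, and the row of Etv5 holds the negative values, down to -0.80 with Dusp5.

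The profiles most like each of the 10 over the 21 libraries were sought among 10170 genes averaging 5 CPM or more. From these the 10 themselves and names of clones, predictions and pseudogenes had been left out. Spry4 was closest to the RNA-binding protein gene Lin28a (r = 0.99), a general marker of pluripotent cells that was at 75 ± 8.72 CPM in A2 ground and 597 ± 18.5 CPM in A2 EPL libraries, then to Fam169a and Slc27a2. Dusp6 was closest to Smarca1 (0.99), a chromatin remodeller gene, then Septin6 and Emb. Dusp4 was closest to the tight-junction gene Cgn (0.99), then Dtna and Sestd1. Dusp5 was closest to Pdlim7 (0.99), then Dlgap4 and Creb3l1. Etv4 was closest to Gbx2 (0.97), a homeobox gene of naive cells, then Adgrb1 and Srbd1, and Etv5 to Prpf4 (0.98), Mtss1 and Terf1, which encodes a telomere-binding protein. Spry2 was closest to the Hedgehog receptor gene Ptch1 (0.97), then Chst10 and Xpo7, and Spry1 to Macir (0.96), Enpp2 and Lpcat4. Spred1 was closest to Epas1 (0.95), D1Pas1 and Ext1, and Spred2 to Sned1 (0.96), Phf21a and Stk10. Over the 7 group means instead, the closest gene was the same for 5 of the 10, and Etv1 stood next to Prpf4 in likeness to Etv5 (r = 0.99).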

How the data were processed

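Total RNA of 21 mouse libraries was sequenced with a kit that does not mark strand. The authors deposited raw read counts per gene in 1 table, and per the submitters' processing notes these were made with HISAT2, SAMtools and featureCounts on GRCm38; their versions and settings were not given in the sources used. All 39396 gene IDs matched GENCODE M21, and 0 columns were left unused. The 10 genes and the pathway and marker lists were chosen with earlier results of these data known.

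Counts were tested with edgeR 4.0.16 (R 4.3.3): filterByExpr (minimum count 10, minimum total 15), TMM factors, and glmQLFit and glmQLFTest with 1 mean per group over 21 libraries (14 residual degrees of freedom). Benjamini-Hochberg adjustment ran over 16575 genes, and a gene is called below 0.05. The test was checked only on simulated data in which few genes changed, so the check does not cover comparisons with many changed genes, as here. CPM use TMM library sizes, and correlations use log2 CPM with a prior count of 2. Named genes are the 10, the 3 genes most like each (mean of at least 5 CPM), up to 4 called genes per list and comparison with the greatest absolute change (minimum 5 CPM in either group), and markers. Promoters are RefSeq windows (GRCm38.p6), used for 7 of the 10 genes, with those of the 10 genes on chromosome 18 (Spry4) left out. Alternatives were DESeq2 1.42.0 and other scalings, filters, samples and a replicate block. Protein identity within families was planned and not run, since no protein table was used here. The series design text calls the samples paired without saying how. Libraries with the same replicate number were not in general more alike (median correlation -0.0189, beside 0.0109 for other numbers). This check cannot exclude a pairing, and the main model held none.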

Additional observations from a re-analysis of the deposited data

Results flagged for a closer look

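For 5 genes a difference between stages differed between the lines, tested as the D3 change minus the A2 change in edgeR's quasi-likelihood model. From ground to naive cells the difference was 1.10 ± 0.29 for Dusp5 (adjusted p = 0.0395) and 0.61 ± 0.12 for Etv4 (adjusted p = 0.00364). For EPL against naive cells it was -0.81 ± 0.25 for Dusp5 (adjusted p = 0.0307) and 0.30 ± 0.09 for Dusp6 (adjusted p = 0.0282). From ground to EPL cells it was 0.82 ± 0.21 for Spry1 (adjusted p = 0.00995), -0.35 ± 0.08 for Spry2 (adjusted p = 0.00734) and 0.47 ± 0.10 for Dusp6 (adjusted p = 0.0019). The naive libraries enter both Dusp5 values with opposite sign, and the EPL libraries both Dusp6 values. The Etv4 value and those from ground to EPL cells held with any 1 library left out, while both Dusp5 values and the Dusp6 value for EPL against naive cells did not.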

How the results depend on the processing

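Each of 190 values of the 10 genes was recomputed under 8 alternatives and with each of 21 libraries left out. With a 2-fold minimum, the number of the 10 genes called went from 9 to 6 for naive against ground and 10 to 5 for EPL against ground. It went from 9 to 1 for EPL against naive, 8 to 4 for EpiSC against EPL and 10 to 4 for EpiSC against ground. For EpiSC against naive it went from 7 to 2 higher and 4 lower, and for D3 against A2 from 5 to 0. Line differences went from 2 to 1 in naive against ground, 2 to 0 in EPL against naive and 3 to 0 in EPL against ground. Of all genes, 13.2% passed 2-fold as higher in naive against ground, and 9.79% in either direction in EPL against naive. The share at 2-fold is not given for the other comparisons, so their counts cannot be read against it. The count of line differences in EPL against naive was 1 with only the compared groups in the model and 4 with DESeq2. Leaving out 1 library gave 9 to 9 genes for naive against ground, 10 to 10 for EPL against ground, 9 to 9 for EPL against naive, 7 to 8 for EpiSC against EPL and against naive, 10 to 10 for EpiSC against ground, 5 to 6 for D3 against A2, and 1 to 2, 0 to 2 and 3 to 3 for the line differences. Of 63 same-number pairs of libraries, 8 correlated over 0.1 (median -0.0189), and 5 of 21 libraries were closest to their own number. With the replicate number as a block, line differences in naive against ground went from 2 to 1 (Dusp5 1.10, adjusted p = 0.0584), and no other call changed. The signs that reversed belonged to log2 changes that were not called, and the cause was not tested. For Dusp5, EPL against naive in A2, these were -0.00208 (RLE), -0.0213 (total counts), -0.0042 (stricter filter), -0.000123 (replicate block), -0.0106 (compared groups) and -0.00229 (DESeq2). The Dusp4 line difference in naive against ground was 0.0088 (RLE), 0.00488 (no filter) and 0.015 (DESeq2), and that of Spred1 in EPL against ground was -0.00389, -0.0102 and -0.00395, with -0.00365 (stricter filter) and -0.0157 (compared groups). With total counts, Spred1 and Spred2 were at 0.0516 and 0.128 for EpiSC against EPL, Spry1 and Spred2 at 0.0832 and 0.0183 for EpiSC against naive, Dusp4 at -0.0282 (-0.00458 with the stricter filter) for D3 against A2 in naive cells, Spred2 at 0.0139 for D3 against A2 in EPL cells and Spry2 at 0.00321 for the line difference in EPL against naive. With 1 library left out, naive against ground in A2 ranged from -0.0218 to 0.0699 for Etv5. D3 against A2 ranged from -0.0186 to 0.0562 for Spry4 and -0.0606 to 0.0127 for Spred2 over stages, from -0.00299 to 0.199 for Spry4, -0.00993 to 0.0565 for Spred2 and -0.117 to 0.126 for Dusp4 in ground, from -0.208 to 0.0132 for Spred2 and -0.0330 to 0.0838 for Dusp4 in naive, and from -0.0536 to 0.0450 for Spred2 in EPL cells. Line differences ranged from -0.00104 to 0.201 for Spry4 and -0.113 to 0.130 for Dusp4 (naive against ground), -0.0981 to 0.0669 for Spred1 and -0.0899 to 0.0132 for Spred2 (EPL against ground), and -0.0152 to 0.199 for Spred2 (EPL against naive). EPL against naive ranged from -0.0950 to 0.0158 (mean) and -0.103 to 0.115 (D3) for Spred2 and -0.0857 to 0.108 for Dusp5 (A2), and EpiSC against naive from -0.186 to 0.0125 for Spry1. The 3 libraries per group limit the precision of scarce transcripts such as Dusp4 and Dusp5 in ground cells.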
